A study of Macaca mulatta with 30 samples.

Results

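The genes described here belong to the machinery that stores neurotransmitter in synaptic vesicles and fuses those vesicles with the presynaptic membrane. The set was chosen by name, with earlier results of these data known. It holds 9 genes, with the synapsins SYN1, SYN2 and SYN3 and the SNARE genes STX1A, SNAP25 and VAMP2. The others are the calcium sensor SYT1, the complexin CPLX1 and the vesicle membrane gene SYP. Of the 9, 8 were matched by gene symbol to an identifier among the 32386 in the hippocampus count table, and all 8 passed the read minimum that 17390 genes passed. No identifier was matched to VAMP2 with the name table used, so it was not analysed here.

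In a presynaptic terminal, synapsins are phosphoproteins that tether vesicles to one another and hold a reserve pool. Vesicle fusion is driven by SNARE proteins, which zip together from both membranes: VAMP2 sits on the vesicle, and syntaxin 1A and SNAP-25 sit on the plasma membrane. Synaptotagmin 1 senses the calcium that enters with an action potential, complexin binds the assembled SNARE bundle, and synaptophysin is an abundant protein of the vesicle membrane that binds VAMP2. In the hippocampus these genes are expressed by neurons, and the products of most of them accumulate as synapses form.

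Pregnant rhesus macaques received 1 of 3 intramuscular injections, and the fetal hippocampus was taken 5 days later at a gestational age between 130 and 136 days. Each group held 5 fetuses with 1 library per fetus. CTL animals received saline, and BAC animals received Beta-Ac (betamethasone acetate, a slowly released steroid ester) at 0.125 mg/kg. CEL animals received the clinical drug, Celestone, at 0.25 mg/kg, which combines Beta-Ac with the rapidly absorbed betamethasone phosphate (Beta-P). These doses are those of the study's methods, so the drugs differ in total dose as well as in formulation. The comparisons ask whether either steroid left a difference in the fetal brain, and whether Beta-Ac alone differed from the combination. The library names gave the groups. The separate treatment and dose fields of the hippocampus samples disagree with the names: they attach the combined drug at 0.25 mg/kg to the BAC libraries and Beta-Ac at 0.125 mg/kg to the CEL libraries. For the 3 animals of each drug group that also had a lung library, the lung fields matched the names used here. With the groups taken from the fields instead, the CEL and BAC libraries keep every value below and exchange drugs.

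Library totals ranged from 18.3 to 29.3 M counted reads. All 15 genes listed as hippocampal neuron markers were detected. The granule cell gene PROX1 was measured in every library, at 10.1 CPM in BAC235 and 62.7 CPM in CEL115 at the extremes. CTL212 stood apart: its summed level of 5 choroid plexus genes was 1108 CPM (CPM are reads per 1 M reads after TMM scaling), against 8.36 to 29.8 CPM in the other 14 libraries. The sum of 16 general neuron markers in CTL212 was 9539 CPM, against 11670 to 15620 CPM in the others. Results are therefore given with and without this library. In CTL092 and BAC235 a block of 37 consecutive identifiers without a symbol held 0.749% and 0.721% of reads, against at least 7.37% in every other library. The share also differed between groups, from 9.63% to 17.5% in CEL and from 0.749% to 8.71% in CTL, without overlap. In BAC it ranged from 0.721% to 13.6%. The SYN1 and STX1A calls described below held with these identifiers left out. The source of the block was not tested. The libraries came from 4 sequencing runs, and only run1630 and run0164 held all 3 groups, each with a single control library. In whole tissue, fewer cells of a type and less RNA per cell cannot be told apart.

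SYN1 and STX1A were lower in the hippocampus of fetuses exposed to the clinical drug than in saline controls. SYN1 was 0.573-fold and STX1A 0.623-fold the control level, and in both genes every CEL library lay below every CTL library. Among the 17390 genes tested, 10% had CEL lower without overlap and 5.35% were called lower. The SYN1 and STX1A calls held without CTL212. The other 6 members, SYN2, SYN3, SNAP25, SYT1, SYP and CPLX1, did not pass the test. No member was called after Beta-Ac or between the drugs, where 0% of all genes were called. The SYN1 and STX1A calls were lost once sequencing run entered the fit.

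**Figure D1:**
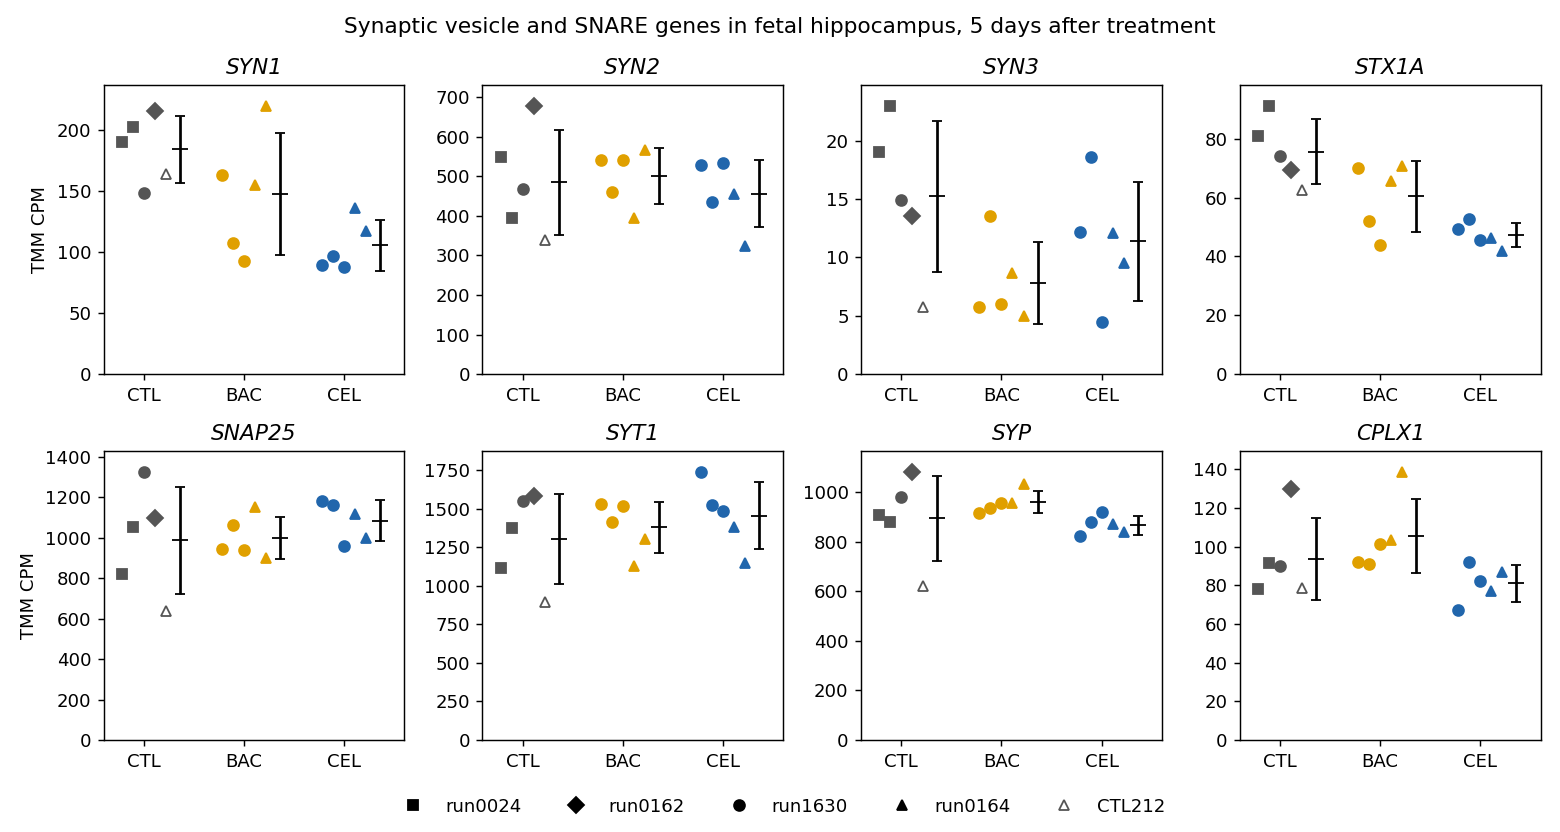
Level of each of the 8 measured genes in TMM CPM (vertical axes, linear and starting at 0) in the 5 CTL, 5 BAC and 5 CEL libraries. Each symbol is 1 fetus, its shape marks the sequencing run, the open triangle is CTL212, and the black bar is the group mean with its SD. In SYN1 and STX1A all 5 CEL libraries sit below all 5 CTL libraries, with CEL maxima of 136 and 52.7 CPM.

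SYN1 encodes synapsin I, the major vesicle phosphoprotein. In the controls it was measured at 189.9 CPM in CTL092, 202 in CTL101, 148 in CTL113, 216 in CTL209 and 164.3 in CTL212. The BAC libraries held 163 CPM in BAC128, 107 in BAC130, 92.6 in BAC136, 155 in BAC235 and 219 in BAC237. The CEL libraries held 89.4 CPM in CEL115, 96.8 in CEL120, 87.6 in CEL126, 136 in CEL238 and 117 in CEL245. The CEL libraries formed a low group that did not overlap with the controls, while BAC libraries reached from the CEL range to above the highest control. The group means were 184.1 ± 27.5 CPM in CTL, 147.4 ± 50.2 in BAC and 105.4 ± 20.7 in CEL (SD, n = 5 each). With edgeR's quasi-likelihood test, SYN1 differed between CEL and CTL by -0.80 on the log2 scale (SE 0.203, 95% interval -1.23 to -0.37, Benjamini-Hochberg adjusted p = 0.0232). Without CTL212 the difference was -0.84 (adjusted p = 0.0245 by the same test).

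STX1A encodes syntaxin 1A, the plasma membrane SNARE on which vesicles dock. It was measured at 81.0 CPM in CTL092, 91.0 in CTL101, 74.2 in CTL113, 69.4 in CTL209 and 62.7 in CTL212. The BAC libraries held 70.1 CPM in BAC128, 52.1 in BAC130, 43.8 in BAC136, 65.5 in BAC235 and 70.6 in BAC237. The CEL libraries held 49.4 CPM in CEL115, 52.7 in CEL120, 45.5 in CEL126, 46.3 in CEL238 and 41.9 in CEL245. The CEL values were tightly grouped and lay wholly under the control range, and the BAC values straddled both. The coefficient of variation of STX1A was 8.69% in CEL, 14.4% in CTL and 19.8% in BAC. The CEL group differed from CTL by -0.68 on the log2 scale (SE 0.136, 95% interval -0.97 to -0.39, edgeR quasi-likelihood adjusted p = 0.0138). Without CTL212 the difference was -0.74 (adjusted p = 0.0117 by the same test).

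A gene was called when its fold change was at least 1.5, its p under 0.05 and its adjusted p under 0.1. By this rule 2 of the 8 tested members were called lower in CEL than in CTL and 0 were called higher. Over all 17390 genes tested, 5.35% were called lower and 2.5% higher, together 7.86%. The members were chosen with earlier results of these data known, so shares set side by side are a description. Without CTL212 the same 2 members and 5.01% of all genes were called lower. With run in the fit 0 members and 4.72% of all genes were called lower. A gap between the groups with CEL lower was likewise found in 2 of 8 members, against 10% of all genes. The median log2 difference was -0.15 over the 8 members and -0.02 over all genes. Of the members, 6 of 8 lay below 0, as did 51.9% of all genes. Once run entered the fit, the members' median turned to 0.13 and 3 of 8 lay below 0, against 51.1% of all genes. That difference rests on 2 controls that share a run with CEL libraries, CTL113 in run1630 and CTL212 in run0164. In run1630 alone 6 of 8 members lay below 0. In run0164 alone, with CTL212 as the control, 2 of 8 did and the median was 0.34. The part of CTL212 in the turned median was not tested. Without CTL209 the median was -0.0031. The summed level of 16 general neuron genes ranged from 9539 to 15360 CPM in CTL and from 12900 to 15620 CPM in CEL. The summed level of 7 astrocyte genes was higher in most CEL libraries, from 3685 to 5042 CPM against 2696 to 3961 CPM in CTL. It was also high in BAC, with a median of 4462 CPM against 4234 in CEL, and 2 of the 7 genes lay below 0 in CEL versus CTL. The summed level of 15 hippocampal neuron genes ranged from 1021 to 1197 CPM in CEL against 752.4 to 1054 CPM in CTL. None of these genes was at 0 in all libraries. The part of these differences in the SYN1 and STX1A values was not tested.

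**Figure D2:**
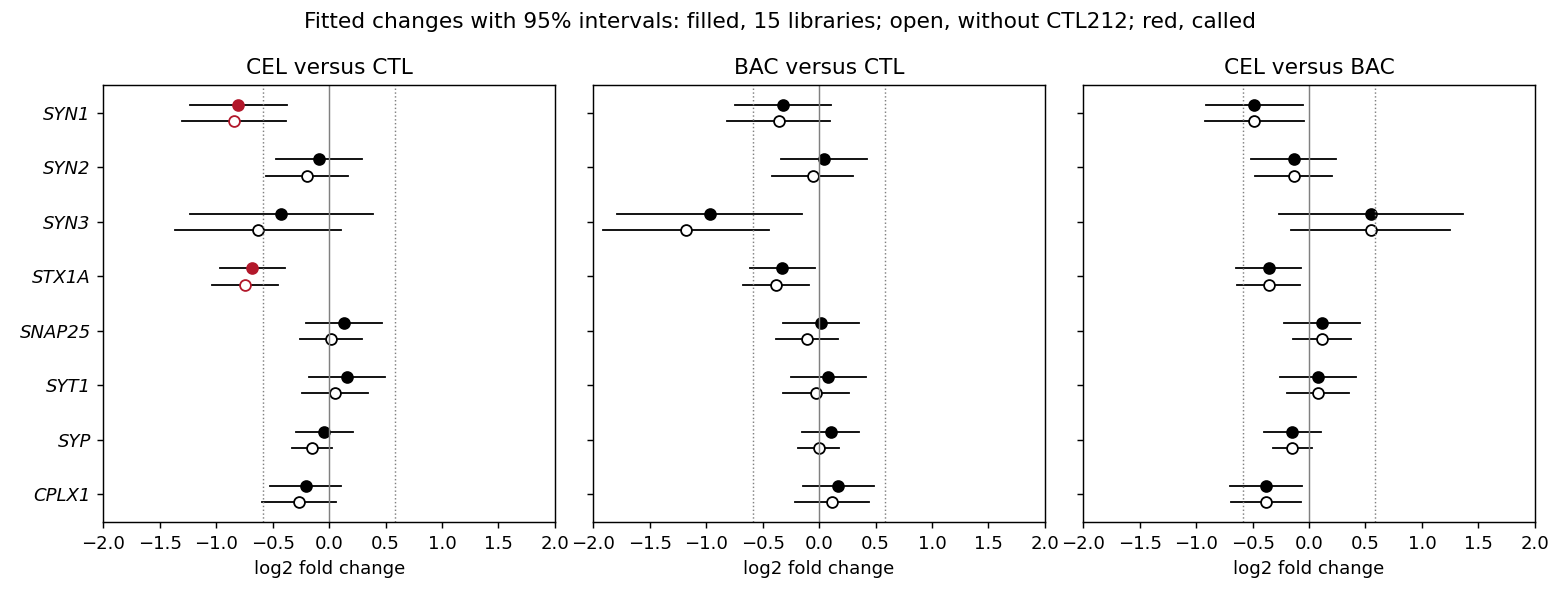
Fitted log2 fold change of each member with its 95% interval in the 3 comparisons. Filled points use all 15 libraries, open points leave out CTL212, red marks called genes, and dotted lines mark a 1.5-fold change in either direction. Only SYN1 and STX1A in CEL versus CTL are called, at -0.80 and -0.68 with all libraries.

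The other 2 synapsins did not pass the test. SYN2, which encodes the closely related synapsin II, was measured at 548, 394, 468, 677 and 339.8 CPM in CTL092, CTL101, CTL113, CTL209 and CTL212. It was measured at 541, 461, 541, 395 and 567 CPM in BAC128, BAC130, BAC136, BAC235 and BAC237, and at 528, 436, 532, 456 and 325 CPM in CEL115, CEL120, CEL126, CEL238 and CEL245. All 3 groups overlapped broadly, with CTL212 and CEL245 as the lowest libraries. The CEL minus CTL difference was -0.09 on the log2 scale, and its 95% interval of -0.47 to 0.29 did not reach a 1.5-fold change in either direction (edgeR quasi-likelihood adjusted p = 0.762).

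SYN3 encodes synapsin III, the form expressed early in neuronal development, and it varied most among the members. Its CTL values were 19.1 CPM in CTL092, 22.9 in CTL101, 14.9 in CTL113, 13.6 in CTL209 and 5.76 in CTL212. The BAC libraries held 5.78 CPM in BAC128, 13.6 in BAC130, 5.97 in BAC136, 8.62 in BAC235 and 4.99 in BAC237. The CEL libraries held 12.2 CPM in CEL115, 18.6 in CEL120, 4.5 in CEL126, 12.1 in CEL238 and 9.5 in CEL245. CTL212 lay among the low BAC libraries, and the other 4 controls were all above the highest BAC library. Its coefficient of variation within a group was between 42.4% and 45%, from 111 to 590 reads per library.

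The BAC minus CTL difference of SYN3 was -0.97 on the log2 scale (SE 0.385, unadjusted p = 0.0228, edgeR quasi-likelihood adjusted p = 0.333). Without CTL212 it was -1.18 (unadjusted p = 0.00394, edgeR quasi-likelihood adjusted p = 0.184), and the groups no longer overlapped, as was the case for 2.59% of all genes with BAC lower. The gap between them was small, since the lowest remaining control had 13.565 CPM and the highest BAC library 13.555 CPM. With run in the fit the SYN3 difference was -0.38 (adjusted p = 0.754 by the same test). The CEL minus CTL difference of SYN3 was -0.42 (edgeR quasi-likelihood adjusted p = 0.479).

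SNAP25 encodes the SNARE that contributes a pair of helices to the fusion bundle. It was measured at 823, 1054, 1323.5, 1097 and 639.7 CPM in CTL092, CTL101, CTL113, CTL209 and CTL212. The BAC libraries ranged from 902 to 1153 CPM and the CEL libraries from 957 to 1184 CPM, both inside the control range. CTL212 was the lowest of all 15 libraries. The CEL minus CTL difference was 0.14 on the log2 scale with all libraries and 0.01 without CTL212 (edgeR quasi-likelihood adjusted p = 0.596 and 0.956). Without CTL212 the 95% interval was -0.26 to 0.29, which did not reach a 1.5-fold difference in that fit. Across 31 alternative settings the SNAP25 difference ranged from -0.27 to 0.74, and the highest value was above 1.5-fold.

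SYT1, the calcium sensor for fast release, was measured at 1116, 1372, 1547, 1581 and 896 CPM in CTL092, CTL101, CTL113, CTL209 and CTL212. The BAC libraries ranged from 1129 to 1529.6 CPM and the CEL libraries from 1147 to 1736 CPM, again overlapping with the controls. CTL212 was the lowest library here too. The CEL minus CTL difference was 0.16 on the log2 scale with all libraries and 0.05 without CTL212 (edgeR quasi-likelihood adjusted p = 0.522 and 0.839).

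SYP, which encodes synaptophysin, was measured at 906, 881, 982, 1079.6 and 622 CPM in CTL092, CTL101, CTL113, CTL209 and CTL212. The drug groups were narrower, from 917 to 1032 CPM in BAC and from 821.5 to 921 CPM in CEL. Without CTL212 the CEL minus CTL difference was -0.15 (95% interval -0.33 to 0.03, edgeR quasi-likelihood adjusted p = 0.249), against -0.04 with it (adjusted p = 0.828). The coefficient of variation of SYP was 4.51% in BAC and 4.39% in CEL. In CTL it was 19.1%, and 9.29% without CTL212.

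CPLX1 encodes complexin 1, which clamps and then assists the SNARE bundle. It was measured at 77.9 CPM in CTL092, 91.7 in CTL101, 89.8 in CTL113, 129.9 in CTL209 and 78.8 in CTL212. The BAC libraries held 92.3 CPM in BAC128, 91.2 in BAC130, 102 in BAC136, 104 in BAC235 and 138 in BAC237. The CEL libraries held 67.1 CPM in CEL115, 92.2 in CEL120, 82.0 in CEL126, 76.9 in CEL238 and 86.8 in CEL245. Its CEL values lay mostly under the BAC values, with CEL120 inside the BAC range. CEL differed from CTL by -0.21 and BAC from CTL by 0.17 on the log2 scale (edgeR quasi-likelihood adjusted p = 0.362 and 0.677).

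After Beta-Ac, 0 of 8 members and 0 of 17390 genes were called against CTL, so the share of all genes called was 0%. Counted at an unadjusted p under 0.05, the test found 2 members, SYN3 and STX1A, and 12.3% of all genes. With DESeq2 149 genes or 0.857% were called, 0 of them members. Leaving out BAC128 took the count over all genes from 0 to 184, again with 0 members. The BAC and CTL ranges overlapped in all 8 members, and 0.868% of all genes had BAC lower without overlap. STX1A differed by -0.32 on the log2 scale (unadjusted p = 0.0292, edgeR quasi-likelihood adjusted p = 0.355) and SYN1 by -0.32 (adjusted p = 0.536). The median over the members was 0.03, with 3 of 8 below 0, and -0.01 over all genes, with 51.5% below 0. Without CTL212 the members' median turned to -0.08, with 7 of 8 below 0 against 46.9% of all genes. Both drug groups are compared with the same 5 control libraries.

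Between the drugs, 0 members and 0 genes were called, again 0% of all genes. Here the unadjusted p was under 0.05 for 3 members, SYN1, STX1A and CPLX1, and for 13.5% of all genes, and all 3 members were lower in CEL. DESeq2 called 186 genes or 1.07%, and 0 members. The CEL and BAC ranges overlapped in all 8 members, and 1.21% of all genes had CEL lower without overlap. SYN1 was lower in CEL than in BAC by -0.48 on the log2 scale, STX1A by -0.36 and CPLX1 by -0.38, with edgeR quasi-likelihood adjusted p of 0.318, 0.28 and 0.289. This comparison is the least tied to sequencing run, because 3 libraries of each drug came from run1630 and 2 of each from run0164. With run in the fit the 3 differences were -0.47, -0.36 and -0.37 (edgeR quasi-likelihood adjusted p = 0.152, 0.193 and 0.155). In run0164 both CEL libraries lay below both BAC libraries in SYN1, STX1A and CPLX1. In run1630 the groups overlapped in all 3 genes.

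**Figure D3:**
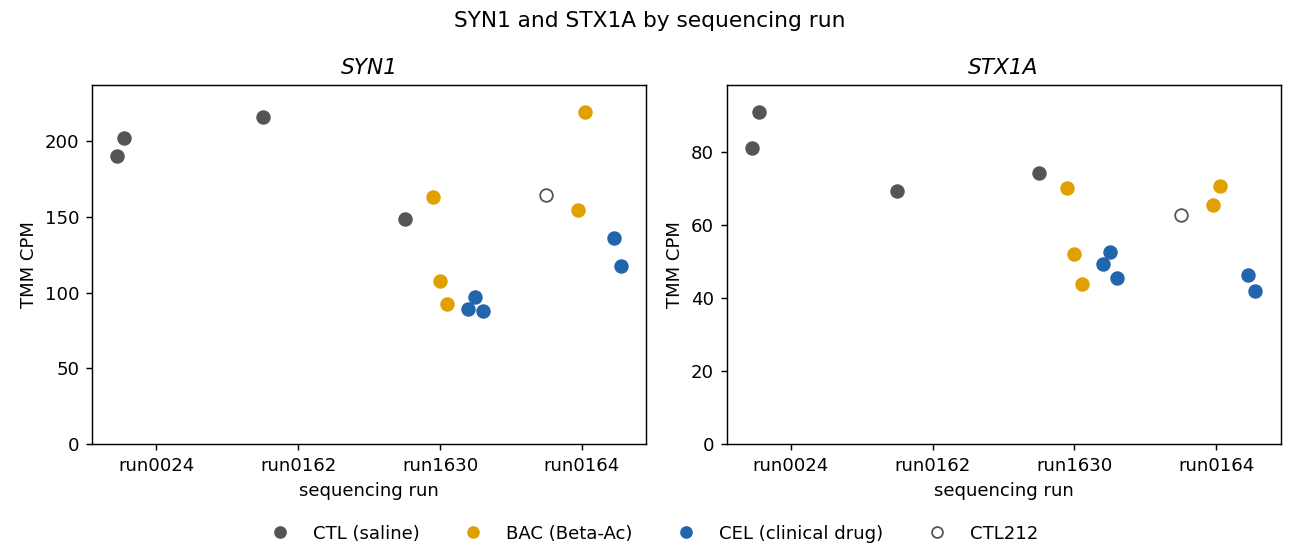
SYN1 and STX1A in TMM CPM (vertical axes, starting at 0) by sequencing run, with 1 point per library coloured by group and CTL212 open. The single control of run1630 had 148 CPM of SYN1 and 74.2 of STX1A, above its 3 CEL libraries, and CTL212 in run0164 lay above its 2 CEL libraries in both genes.

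Both calls were lost in 4 settings, all of which entered run or used 1 run alone. The controls of run0024 and run0162, which held no treated animals, were 3 of the 5 controls and had the 3 highest control levels of SYN1. For STX1A this did not hold, since CTL113 of run1630 had 74.2 CPM and CTL209 of run0162 had 69.4. With run as a term these 3 controls do not enter the CEL minus CTL difference, which leaves CTL113 and CTL212. Run, the smaller number of controls and the weight of CTL212 cannot be told apart. With run as a term in the fit, SYN1 differed between CEL and CTL by -0.55 (edgeR quasi-likelihood adjusted p = 0.111) and STX1A by -0.54 (adjusted p = 0.0915), both under the 1.5-fold threshold. Within run1630 the CEL minus CTL difference was -0.70 for SYN1 and -0.60 for STX1A, and within run0164 it was -0.36 and -0.50. Each of these within-run values rests on 1 control, and the one in run0164 is CTL212. Both genes therefore kept a lower value in each run, without a call. Across 31 alternative settings both kept their direction in all, and were called in 27.

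**Figure D4:**
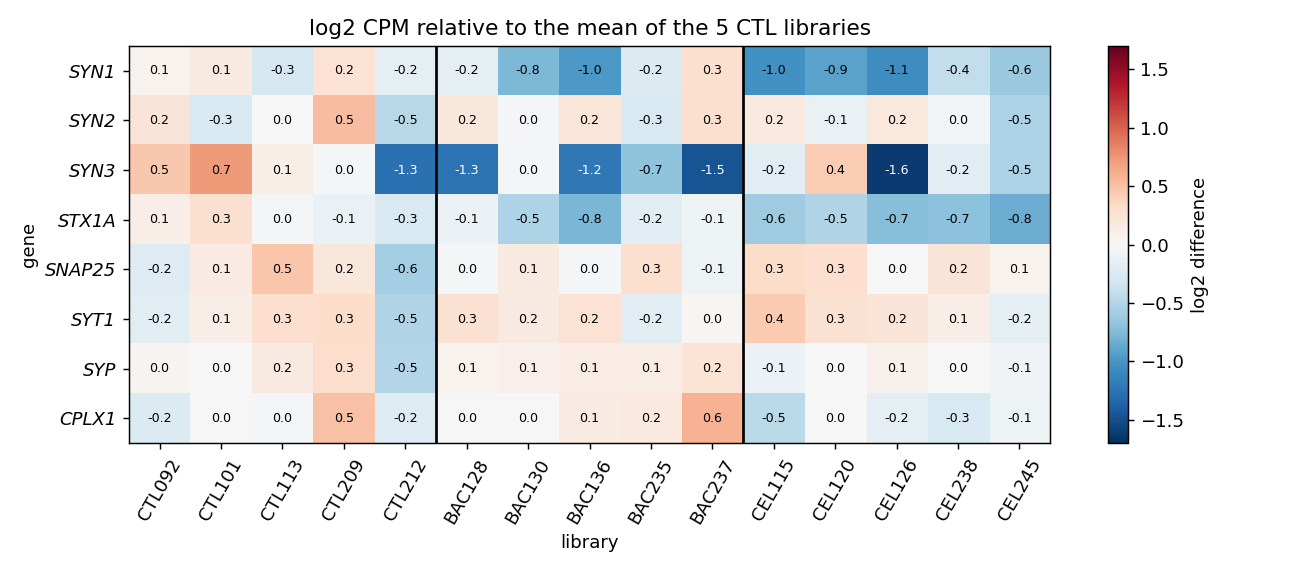
Difference in log2 CPM of each member (rows) in each library (columns) from the mean of the 5 CTL libraries, blue for lower and red for higher, with the value printed in each cell. SYN1 and STX1A are below 0 in all 5 CEL libraries, and STX1A also in all 5 BAC libraries. In CTL212 all 8 genes are below 0.

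CTL212 was below the control mean in all 8 members, the lowest of the 15 libraries in 3 and among the lowest 3 in 5. Its summed level over the 8 members was 2809 CPM, against 3569 to 4863 CPM elsewhere. Ratios of reads within a library need no scaling between libraries, and the pairs below were chosen after their values were seen, so they carry no test. STX1A had 9.85, 8.64, 5.61, 6.32 and 9.80 reads per 100 SNAP25 reads in CTL092, CTL101, CTL113, CTL209 and CTL212. In the CEL libraries it had from 4.14 to 4.76, all below the lowest control, and in the BAC libraries from 4.65 to 7.83. SYN1 had from 15.1 to 26.4 reads per 100 SYP reads in CTL, from 9.69 to 21.3 in BAC and from 9.52 to 15.6 in CEL. CTL212 had the highest SYN1 to SYP ratio of all libraries, and the CTL and CEL ranges overlapped only at CEL238 and CTL113. The other pairs computed separated the groups less. SYN1 had from 31.7 to 51.2 reads per 100 SYN2 reads in CTL and from 16.5 to 36.1 in CEL, with CEL245 the highest CEL library. SYN3 per 100 SYN2 reads was 1.7 to 5.82 in CTL and 0.844 to 4.27 in CEL. CPLX1 per 100 SYP reads was 8.6 to 12.7 in CTL and 8.17 to 10.5 in CEL.

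The wider presynaptic lists held 111 further genes, of which 98 were tested. All gene lists were chosen with earlier results of these data known, so their shares are a description. Of the 98 genes, 7 were called lower in CEL than in CTL and 0 higher, or 7.14% lower beside 5.35% of all genes. The 7 were CASK, RIMS2 and ERC1 of the active zone, DNM1 and ITSN1 of vesicle endocytosis, the endosomal SNARE STX7 and the vesicle GTPase RAB3B. The median log2 difference over the 98 genes was -0.14. After Beta-Ac and between the drugs 0 of the 98 were called.

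The active zone list covers the scaffold at which vesicles dock. Of its 15 tested genes 3 were called lower, or 20% beside 5.35% of all genes. CASK, a scaffold kinase that binds neurexin, was measured at 79.9, 64.4, 57.3, 82.0 and 55.0 CPM in CTL092, CTL101, CTL113, CTL209 and CTL212, and at 43.5, 42.7, 35.9, 35.3 and 37.8 CPM in CEL115, CEL120, CEL126, CEL238 and CEL245. The CEL and CTL ranges of CASK did not overlap, as was the case for 10% of all genes with CEL lower. Its CEL minus CTL difference was -0.80 on the log2 scale (edgeR quasi-likelihood adjusted p = 0.0138). RIMS2, which links vesicles to calcium channels, differed by -0.78 (adjusted p = 0.0728 by the same test). ERC1, its binding partner, differed by -0.61 (edgeR quasi-likelihood adjusted p = 0.0478).

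Of the 19 tested endocytosis genes, which retrieve vesicle membrane after fusion, 2 were called lower and 16 lay below 0, with a median of -0.24. Over all genes 5.35% were called lower and 51.9% lay below 0, with a median of -0.02. DNM1, the dynamin that cuts vesicles from the membrane, was measured at 547, 521, 533, 625 and 398 CPM in CTL092, CTL101, CTL113, CTL209 and CTL212, and from 306 to 382 CPM in the CEL libraries. All CEL libraries were thus below all controls, as was the case for 10% of all genes. The DNM1 difference was -0.67 on the log2 scale (edgeR quasi-likelihood adjusted p = 0.0143). ITSN1, an endocytic scaffold, differed by -0.64 (adjusted p = 0.0597 by the same test) and overlapped with the controls at CEL115, with 63.8 CPM against 61.5 in CTL209.

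Among 16 other SNARE genes 1 was called lower, or 6.25% beside 5.35% of all genes, and the median was 0.075. STX7, a late endosomal syntaxin, had from 43.7 to 64.1 CPM in CTL and from 30.8 to 35.7 CPM in CEL, without overlap (-0.77, edgeR quasi-likelihood adjusted p = 0.0138). STX6, a trans-Golgi syntaxin, had from 100.2 to 126 CPM in CTL and from 143 to 165 CPM in CEL, also without overlap. Over all genes, 10% had CEL lower and 5.07% had CEL higher without overlap. The STX6 difference of 0.45 had an adjusted p of 0.0138 by the same test but was under the fold threshold. Of 25 release regulators, 1 or 4% was called lower: RAB3B, which guides vesicles to the membrane, by -0.87 (edgeR quasi-likelihood adjusted p = 0.0486). SNCB, a presynaptic protein that binds vesicles, differed by -0.49 with an adjusted p of 0.0439 by the same test, under the fold threshold.

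In the lists of 12 vesicle membrane genes and 11 transmitter loading genes, 0 were called in either direction. Of the transmitter loading genes 9 of 11 lay below 0, with a median of -0.44, against 51.9% of all genes and a median of -0.02. Their median was -0.31 without CTL212 and -0.09 with run in the fit, where 8 of 11 lay below 0. Some of these genes were low, with means down to 1.56 CPM. The 2 vesicle membrane genes with the smallest p were SYPL1, a synaptophysin relative, and SCAMP1, a carrier membrane protein, with differences of 0.58 and 0.64 (edgeR quasi-likelihood adjusted p = 0.0754 and 0.179). In the transmitter loading list they were the proton pump subunits ATP6V0D1 and ATP6V0A1, with -0.44 and -0.29 (adjusted p = 0.0384 and 0.0754 by the same test). On the other side of the synapse 1 of 15 postsynaptic genes was called lower, DLG2, a receptor scaffold, by -0.71 (edgeR quasi-likelihood adjusted p = 0.0536), and its relative DLG4 differed by -0.39 (adjusted p = 0.0368). Among 16 general neuron genes 1 was called lower, the glycolytic enzyme ENO2, by -0.64 (edgeR quasi-likelihood adjusted p = 0.014). These calls were 6.67% of the postsynaptic and 6.25% of the general neuron genes, beside 5.35% of all genes. UCHL1, a neuronal deubiquitinase, differed by -0.41 (adjusted p = 0.0709 by the same test). The median over the general neuron genes was 0.05, and -0.02 without CTL212. Neither list held a called gene once run entered the fit, where DLG2 was -0.32 and ENO2 -0.46 (edgeR quasi-likelihood adjusted p = 0.483 and 0.114).

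**Figure D5:**
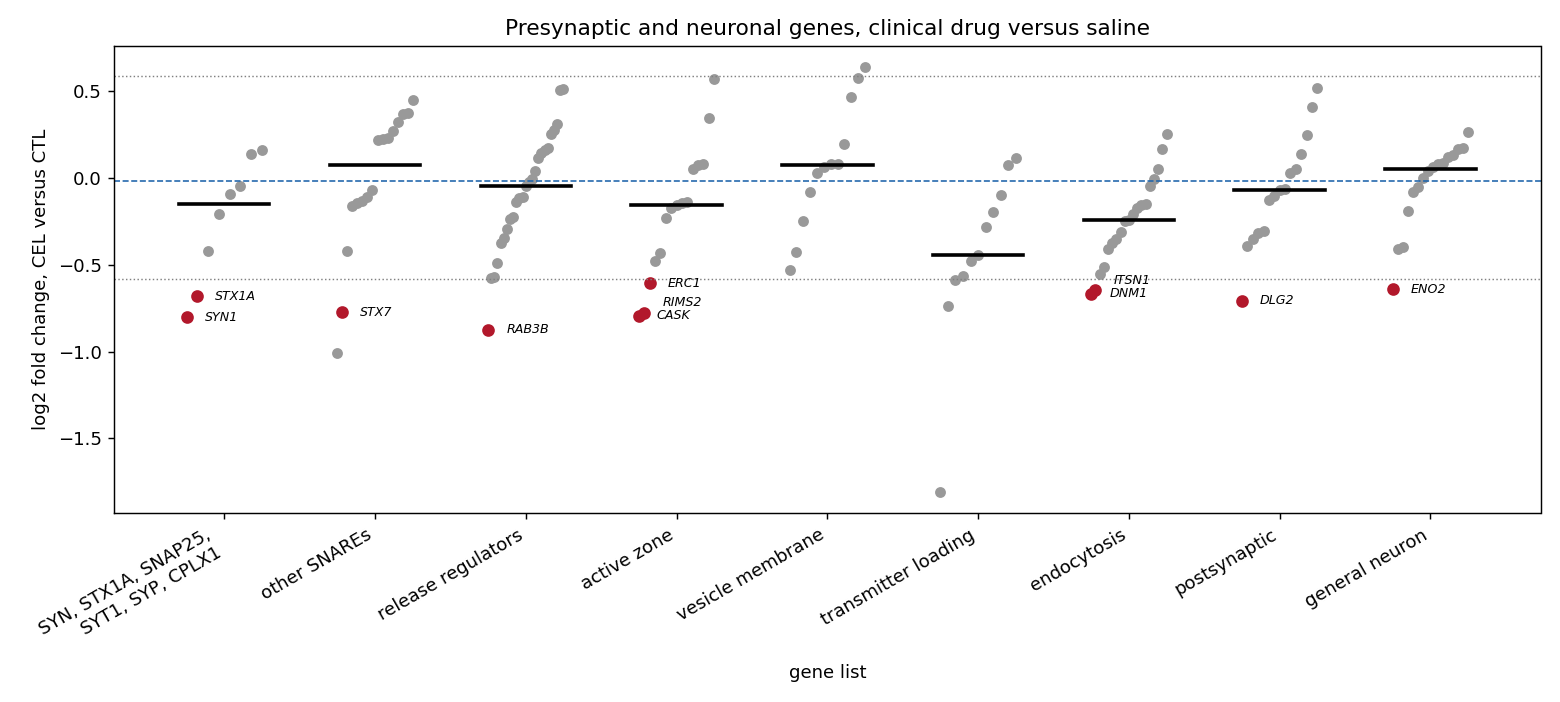
Log2 fold change of CEL versus CTL for every tested gene (points) of the presynaptic, postsynaptic and general neuron lists, with called genes in red and named, list medians as black bars, the median of all genes as a dashed line and a 1.5-fold change as dotted lines. All called genes in these lists are lower in CEL, and list medians run from -0.44 in transmitter loading to 0.075 in other SNAREs. With run in the fit, which is not drawn, the transmitter loading median was -0.09.

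Without CTL212, 9 of the 98 presynaptic genes were called lower, among them the same 7 and the clathrin adaptor AP2A1, and SYPL1 was called higher. The 9 were 9.18% of the genes tested in these lists, beside 5.01% of all genes. With run in the fit 3 were called lower, or 3.06%, which was under the 4.72% of all genes. Of these 3 only ITSN1 was among the 7 (-0.77, edgeR quasi-likelihood adjusted p = 0.0959). The other 2 were SLC17A8 and VAMP8. CASK was then -0.53 (adjusted p = 0.0733 by the same test), under the fold threshold. STX7 and CASK stayed called with any 1 animal left out, and the other 5 did not. DNM1 lost its call without CTL209 (-0.58, adjusted p = 0.0342 by the same test) by falling under the fold threshold. ERC1 lost it without CTL092, CTL209 or CEL245, and RAB3B without CTL092, CTL209 or CEL126, with differences of -0.54 to -0.51 and -0.78 to -0.68. ITSN1 lost it without CTL101, CEL126, CEL238 or CEL245, and RIMS2 without CTL092, CTL101, CTL209, CEL126, CEL238 or CEL245, with differences of -0.60 to -0.54 and -0.78 to -0.59. DLG2 lost it without CTL092, CTL101, CTL209, CEL126 or CEL238 (-0.68 to -0.63), and ENO2 without CTL209 (-0.58).

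Fetal lung was measured in 15 libraries of the same series, scaled separately: 3 after saline, 3 each at 4 h and 5 days after the clinical drug, and 3 each at 6 h and 5 days after Beta-Ac. Every member was low or near 0 there. Over all lung libraries SYN1 was measured at 3.14 to 5.79 CPM, SYN2 at 0 to 3.17, SYN3 at 0.25 to 2.55 and STX1A at 8.03 to 12.9. SNAP25 was measured at 1.38 to 4.35 CPM, SYT1 at 2.78 to 14.7, SYP at 2.74 to 3.72 and CPLX1 at 0 to 0.289, which was 0 to 6 reads per library. In every member the highest lung library was below the lowest hippocampus library.

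The genes whose log2 CPM followed the mean standardized level of the members most closely over the 14 libraries other than CTL212 were WSCD2, HYOU1, ERBB4, GALNTL6 and CRBN. Their Pearson correlations were 0.905, 0.894, 0.881, 0.873 and 0.87, the highest of 15115 genes compared. With CTL212 included they were 0.865, 0.373, 0.464, 0.852 and 0.779, so the likeness of HYOU1 and ERBB4 depended on leaving out that library. Libraries of the same group or run are not independent points, and the values are a description.

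Each synapsin gene overlaps a gene of the TIMP family, inhibitors of metalloproteinases, that lies on the opposite strand, and whether counting used strand is not given in the sources used here. TIMP1, which overlaps SYN1, had 128 to 438 reads per library, against 1820 to 6468 for SYN1. TIMP4, which overlaps SYN2, had 71 to 252 reads, against 6296 to 17062 for SYN2. In CEL minus CTL, TIMP1 was -0.44 and TIMP4 -0.20 on the log2 scale (edgeR quasi-likelihood adjusted p = 0.19 and 0.619). With run in the fit TIMP1 was -0.78 (adjusted p = 0.0744 by the same test) and was called. No identifier was matched to TIMP3, which overlaps SYN3. The part of TIMP reads in the synapsin values was not tested.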

How the data were processed

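Total RNA of fetal hippocampus was poly(A) selected and sequenced as paired 75 bp reads. The authors aligned reads with Bowtie 2 to the rhesus build MMUL1.0 and counted them with featureCounts, and deposited whole-number counts per Ensembl gene without normalization. The version used for hippocampus and the use of strand are not given in the sources used here. Of the identifiers in the hippocampus table, 54.4% had a symbol. No sequence was used.

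The deposited counts were analysed with edgeR 4.0.16 in R 4.3.3: a minimum of 7 reads in 5 or more libraries, TMM scaling, a single fit of 3 groups, the quasi-likelihood F-test and Benjamini-Hochberg adjustment over all genes tested. The study's methods name Storey's adjustment, which was an alternative here. CPM are reads per 1 M reads after TMM scaling. The prior count was 0.125 in the fitted fold changes and 2 in log2 CPM. The lung counts were scaled on their own and were not tested here. The procedure was tested on simulated data with known changes. Those data held no differences between runs and no library like CTL212, so its behaviour under either was not tested. Levels were not compared between genes, because no gene lengths were used.

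The members and gene lists were chosen with earlier results of these data known. Named were all members, every called gene of the presynaptic lists, the 2 genes with the smallest p in CEL versus CTL of any of those lists with fewer than 2 called and of the postsynaptic and general neuron lists, and the 5 genes outside every list, with a mean of at least 1 CPM, most correlated with the members' mean. SLC17A8, VAMP8, AP2A1 and the TIMP genes were named after their values were seen. A gene that the rule names is not reported here.

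Counting error at the lowest read number of a member was 9.49% for SYN3 and at most 3.51% for the others, which covers counting error only. Libraries of a group differed by 13.9 to 247 chi-square units per gene, so none was counted as a repeat. Each library is 1 fetus. Alternatives were other scaling, filters, tests and adjustment, sequencing run, gestational age, each animal left out and, chosen after the data were seen, the libraries or runs named in the closing section (DESeq2 1.42.0 among the tests). Figures were drawn with matplotlib.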

Additional observations from a re-analysis of the deposited data

Results flagged for a closer look

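Among 78 groups of 5 libraries examined, 26 genes in 3 groups, 6 had a library whose gap to its nearest neighbour was a larger share of the group's range than Dixon's 95% limit of 0.71, or 7.69%, where chance gives about 1 in 20. CPLX1 was high in CTL209, at 129.9 CPM with the next control at 91.7, and in BAC237, at 138.4 CPM with the next at 103.6. RIMS2 was low in BAC235, at 16.65 CPM with the next at 35.8. The other 3 were low values of CTL212, the library with choroid plexus transcripts: ATP6V0A1 at 404.0 CPM with the next control at 535.5, DLG4 at 434.7 CPM with the next at 534.1, and ENO2 at 424.6 CPM with the next at 620.9. The part of the choroid plexus transcripts in these values was not tested.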

How the results depend on the processing

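SYN1 and STX1A in CEL versus CTL kept their direction under all 31 alternatives and their call under 27, among them RLE scaling, DESeq2, Storey's adjustment and gestational age. With 1 animal left out SYN1 ranged from -0.91 to -0.73 and STX1A from -0.74 to -0.61. The calls were lost with run as a block, with run1630 and run0164 alone and run as a block, in run1630 alone and in run0164 alone, each with 0 members called. In that order the genes called in CEL versus CTL were 958, 596, 1 and 539, against 1366, and without a fold threshold 3816. The members' median was 0.13, 0.15 and 0.34 with run as a block, in the 2 runs with the block and in run0164, against -0.15. SYN2 was then 0.15, 0.17 and 0.21, SYN3 0.18, 0.19 and 0.92, and SYP 0.11, 0.13 and 0.47, all reversed. CPLX1 was 0.067 in run0164, and in run1630 SYN2 was 0.085 and SNAP25 -0.27. In BAC versus CTL, where 0 genes were called, DESeq2 called 149, the likelihood ratio test 108, Storey's adjustment 1 and run0164 alone 300, and with 1 animal left out 0 to 184. The BAC versus CTL median was -0.18 in run1630 and 0.49 in run0164. In run1630 SNAP25 was -0.43, SYT1 -0.056 and SYP -0.067, and in run0164 SYN1 was 0.20, SYN3 0.26 and STX1A 0.14. SNAP25 was -0.088 without CTL092 and BAC235 and -0.043 without CTL212 with gestational age, and RAB3B 0.02 in the 2 runs with the block. In CEL versus BAC the likelihood ratio test called 99 genes, DESeq2 186, run as a block 13 and the 2 runs with the block 2, and the median in run0164 was -0.26. With 1 animal left out, values that changed sign ranged from -0.20 to 0.07 for SYN2 and -0.15 to 0.044 for SYP in CEL versus CTL. In BAC versus CTL they ranged from -0.059 to 0.20 for SYN2, -0.10 to 0.15 for SNAP25, -0.026 to 0.16 for SYT1 and -0.0034 to 0.18 for SYP, and in CEL versus BAC from -0.052 to 0.28 for ITSN1. The cause of these changes was not tested. No paired analysis was possible because the animal numbers are not shared between groups. Each run with treated animals held 1 control, so differences between runs and between control animals cannot be told apart. Reads limit only SYN3, whose spread between animals was still larger than its counting error.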

Other observations

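Lists of genes of other cell types were compared between CEL and CTL in the same fit. Over all genes 2.5% were called higher and 5.35% lower, with a median log2 difference of -0.02. Each list held 15 or fewer tested genes, so 1 call was already at least 6.67% of a list. Of 15 hippocampal neuron genes 1 was called higher, NEUROD1, and 1 lower, CALB2, with a median log2 difference of 0.18. Of 7 astrocyte genes 1 was called higher, the water channel AQP4, with a median of 0.44, and of 7 interneuron genes 0 were called, with a median of -0.31. Of 8 oligodendrocyte genes 0 were called, and of 4 microglia genes 1 was called higher, P2RY12. Of 6 endothelial genes 1 was called lower, VWF, and of 3 blood genes 0. Of 6 thalamus genes 1 was called lower, of 8 striatum genes 2 lower, RGS9 and PDE10A, and of 9 neuroendocrine genes, which hold SYP and NEUROD1, 1 higher. CALB2 stands in both the hippocampal neuron and the thalamus list. The part of these differences in the values of SYN1 and STX1A was not tested. Of 5 choroid plexus genes 4 were called lower with CTL212 in the fit, and 0 lower and 1 higher without it, and of 7 meninges genes 4 were called lower with it and 1 without. The VWF call was also lost without CTL212, where the endothelial median turned from -0.11 to 0.06, and NPY of the interneuron list was then called lower and SLC1A2 of the astrocyte list higher. When run was a term NEUROD1, CALB2, P2RY12, RGS9 and PDE10A lost their calls, AQP4 and VWF stayed called, NEUROD2 was called higher and PDGFRB, an endothelial list gene, lower. In that fit 5 of 5 choroid plexus genes and 1 of 7 meninges genes were called lower. Over all genes 4.72% were called lower and 0.788% higher with run as a term. Without CTL212 these shares were 5.01% and 2.83%. Without CTL212 SYN1 and STX1A differed by -0.84 and -0.74, against -0.80 and -0.68 with it.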
